A study of Homo sapiens with 4 samples.

Results

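The interferon regulatory factors (IRFs) are a family of transcription factors that share a DNA-binding domain, and they were followed here in THP1 cells, a human monoblastic acute myeloid leukemia cell line that carries the MLL-AF9 fusion gene. The 8 genes IRF1, IRF2, IRF3, IRF4, IRF5, IRF7, IRF8 and IRF9 were taken by name, as every non-control probe that carries one of these symbols in the array annotation. This gave 9 of the 34127 probes on the array, 2 for IRF3 and 1 for each other gene.

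The arrays ask which transcripts differ once THP1 cells hold more miR-511. THP1 cells received 30 nM of miR-511-5p mimic or of control mimic #1 in a single transfection, and total RNA was harvested on day 2. A mimic is a short synthetic RNA duplex that the cell uses like its own miRNA, and control mimic #1 is the negative control. All cells were thus transfected, all came from 1 cell line, and 2 independent experiments each gave 1 array per mimic, so that 4 single-dye Agilent arrays were compared as 2 against 2. Level below means the log2 of the background-corrected intensity after quantile normalization between the arrays, and log2 difference means miR-511 mimic minus control mimic unless the experiments are named.

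IRF proteins bind DNA repeats of the core GAAA. IRF3, IRF5 and IRF7 wait in the cytoplasm until a sensor of viral or bacterial nucleic acid leads to their phosphorylation, after which they switch on interferon genes. IRF9 joins STAT2 in the complex ISGF3, which carries the signal of type I interferon to its target genes. IRF1 and IRF2 bind the same sites, IRF1 mainly as an activator and IRF2 mainly as a repressor, while IRF8 works with PU.1 in monocytes and IRF4 is best known from B cells and plasma cells.

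The miRNA that was added has the mature sequence below, shown because its seed is what pairs with target transcripts. It is given from RefSeq with its position on GRCh38.p14 (chr10:17845122-17845142, plus strand), and the capitals mark the seed, bases 2 to 8.
hsa-miR-511-5p: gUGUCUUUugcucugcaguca
The complement of that seed, AAAGACA, was in 0 of the 9 IRF probes and in 331 of all 34127 probes (0.97%). A probe covers only 60 bases of its transcript, so these counts say nothing of the rest of the IRF transcripts.

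IRF3 was the member with a pair of probes, and their sequences are shown because the probes lie end to end on the gene yet gave different differences. The array annotation lists them under different RefSeq transcripts of IRF3. On hg19, A_23_P27677 lies at chr19:50164080-50165258 on the minus strand, a span of 1179 bases for a probe of 60, so that it crosses at least 1 exon junction. A_33_P3327333 follows it at chr19:50164025-50164084. Both lie in the known coding sequence of IRF3. The capitals mark the 5 bases that the probes share.
IRF3 A_23_P27677: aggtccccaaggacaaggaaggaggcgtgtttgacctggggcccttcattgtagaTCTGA
IRF3 A_33_P3327333: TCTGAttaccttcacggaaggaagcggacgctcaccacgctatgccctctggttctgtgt
The probes of different IRF genes shared no run longer than 8 bases.

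Of the arrays, 64.8% to 69.3% of the probes were well above background and 0 spots were saturated. The 10 monocytic markers on the array, CD33, CSF1R and SPI1 among them, were well above background on all 4 arrays, while NK cell markers (0 of 3), epithelial markers (0 of 2) and fibroblast markers (0 of 2) were on none. Of the markers of other blood cells, the B cell gene CD79A, the T cell genes CD3D and CD8A and the erythroid gene HBB were above background on all 4 arrays, and MS4A1 on none. In bulk RNA, a smaller number of cells of one kind and less RNA per cell cannot be told apart.

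THP1 cells held the transcripts of most IRFs. With 7 of the 9 probes, for 6 of the 8 genes, the signal was well above background on all 4 arrays, against 63.4% of all probes. The exceptions were IRF2, above background on 3 arrays, and IRF4, above background on 1. With the miR-511 mimic, 0 of the 8 tested IRF probes passed an unadjusted p of 0.05 in limma over all tested probes, where 2.20% of the 22638 tested probes did, and 0 of the 8 passed in a plain equal-variance test. After Benjamini-Hochberg adjustment limma called 0 probes of the whole array, against 498 at an unadjusted p below 0.05. Of the 8 IRF probes, 6 differed by less than 0.15 between the mimics on the log2 scale. Their median absolute log2 difference was 0.09, beside 0.079 over all tested probes. The probe that came closest to a call was A_23_P27677 of IRF3, lower with the miR-511 mimic in both experiments.

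**Figure D1:**
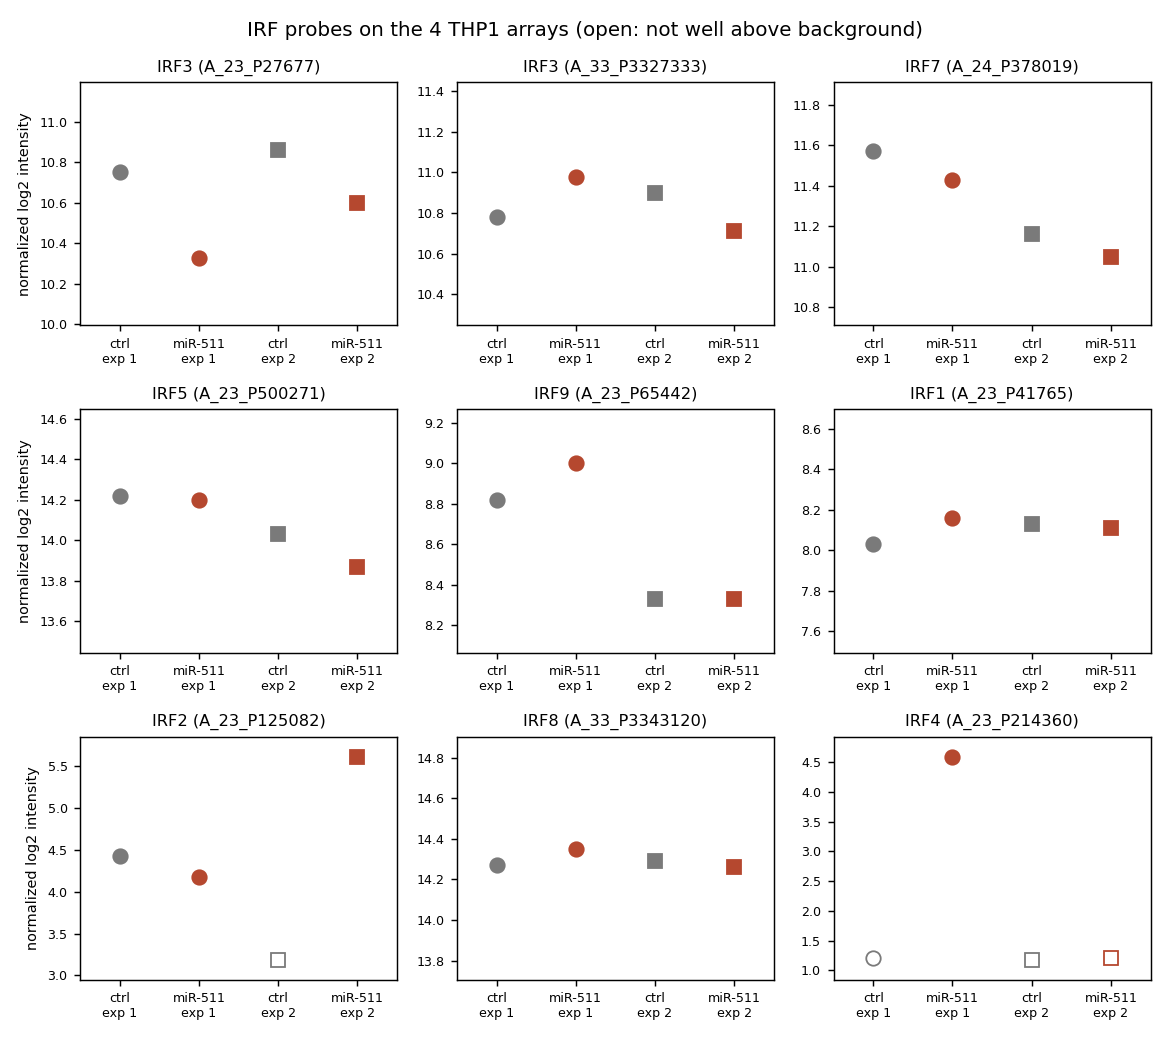
Normalized log2 intensity (y axis, each panel with its own range) of the 9 IRF probes on the 4 arrays (x axis; ctrl, control mimic; exp, experiment), 1 point per array, grey for control mimic and red for miR-511 mimic, circles for experiment 1 and squares for experiment 2. IRF3 probe A_23_P27677 is lower with the miR-511 mimic in both experiments (10.33 and 10.60 against 10.75 and 10.86), IRF7 and IRF9 are lower in experiment 2 under both mimics, and the open points of IRF2 and IRF4 were not well above background.

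Among the virus-activated IRFs, IRF3 is the one that most cells carry ready-made and that starts the first wave of interferon beta. Probe A_23_P27677 had a level of 10.75 in the control mimic and 10.33 in the miR-511 mimic of experiment 1, and of 10.86 and 10.60 in experiment 2. Both miR-511 arrays lay below both control arrays. The log2 difference was -0.43 in experiment 1 and -0.25 in experiment 2, and the fit gave -0.34 ± 0.14 (SE, n = 2 per mimic, 0.79-fold, 95% confidence interval -0.71 to 0.03, limma unadjusted p = 0.0635, Benjamini-Hochberg adjusted p = 1.000). With the experiment as a replicate block the SE was 0.092 and limma's unadjusted p was 0.0348 (Benjamini-Hochberg adjusted p = 0.969), a fit in which 3.95% of all tested probes passed 0.05. An intensity trend in limma also brought it past the threshold (unadjusted p = 0.0403), as did leaving out the miR-511 array of experiment 2 (log2 difference -0.48, limma unadjusted p = 0.0307). Leaving out any of the other arrays did not, with log2 differences of -0.20 without the miR-511 array of experiment 1, -0.29 without the control array of experiment 2 and -0.39 without that of experiment 1 (limma unadjusted p = 0.229, 0.216 and 0.121), nor did the plain equal-variance test (unadjusted p = 0.148). Probes that are printed 10 times on each array had a median SD of 0.063 between their spots at levels of 9 to 12, while each IRF probe was printed once. That SD is within an array and leaves out the spread between arrays and experiments, so it is no measure of error for the difference between the mimics.

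The adjoining IRF3 probe did not show the difference. A_33_P3327333, the brighter of the pair and the one that stands for the gene in the counts by gene, read 10.78 in the control mimic and 10.98 in the miR-511 mimic of experiment 1, and 10.90 and 10.71 in experiment 2. Its miR-511 arrays were thus the highest and the lowest of the 4. The log2 difference was 0.20 and then -0.19, and the fit gave 0.0047 ± 0.14 (SE, n = 2 per mimic, limma unadjusted p = 0.974), with a 95% confidence interval of -0.37 to 0.38. The pair therefore disagreed in experiment 1 in the sign of the IRF3 difference and in experiment 2 agreed in it. Which of them follows the IRF3 transcript more closely was not tested.

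The patterns most like that of IRF3 probe A_23_P27677, by the root mean square distance of values centred on each probe's mean over the 4 arrays, belonged to TBX1 (0.018), ZNF692 (0.022) and FUT6 (0.029), with log2 differences of -0.37, -0.32 and -0.32. Over only 4 arrays such likeness is common. Within a distance of 0.1 there were 369 probes, or 1.63% of those tested.

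IRF7, the factor that amplifies interferon alpha production and is itself an interferon-induced gene, was measured by A_24_P378019 (hg19 chr11:612643-612702, minus strand). Its level was 11.57 in the control mimic and 11.43 in the miR-511 mimic of experiment 1, and 11.16 and 11.05 in experiment 2. The miR-511 array was the lower of each pair, by 0.13 and 0.11, but the mimics overlapped because both arrays of experiment 2 lay below both of experiment 1. The fitted log2 difference was -0.12 ± 0.21 (SE, n = 2 per mimic, limma unadjusted p = 0.597), with an SE that includes the shift between the experiments. With the experiment as a replicate block the SE was 0.077 and the difference did not pass either (limma unadjusted p = 0.213).

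IRF5, which drives inflammatory cytokine genes downstream of Toll-like receptors in macrophages, was among the bright probes (A_23_P500271, hg19 chr7:128589323-128589382, plus strand). It read 14.22 in the control mimic and 14.20 in the miR-511 mimic of experiment 1, and 14.03 and 13.87 in experiment 2. The miR-511 array was again lower in each pair, by 0.028 and 0.15, with overlapping mimics. The fit gave a log2 difference of -0.091 ± 0.16 (SE, n = 2 per mimic, limma unadjusted p = 0.597). With the replicate block the SE was 0.085 (limma unadjusted p = 0.367). IRF3 by A_23_P27677, IRF7 and IRF5 were the 3 probes of the family that were lower with the miR-511 mimic in both experiments. None of the others was higher in both, and 5 of 8 had opposite signs, while 51% of all tested probes had the same sign in both experiments.

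Of the factors that act after interferon binds its receptor, IRF9 was measured by A_23_P65442 (hg19 chr14:24635500-24635559, plus strand). Its level was 8.82 in the control mimic and 9.0 in the miR-511 mimic of experiment 1, and 8.33 on both arrays of experiment 2. The miR-511 arrays held the highest level and shared the lowest, and both arrays of experiment 2 lay below both of experiment 1. The fitted log2 difference between the mimics was 0.09 ± 0.30 (SE, n = 2 per mimic, limma unadjusted p = 0.78). With the replicate block the SE was 0.093 (limma unadjusted p = 0.408).

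IRF1, the activator that interferon gamma induces within hours, had levels of 8.03 and 8.16 in the control and miR-511 mimics of experiment 1 and of 8.13 and 8.11 in experiment 2 (A_23_P41765, hg19 chr5:131819442-131819501, minus strand). All 4 arrays lay close together and the mimics overlapped. Its log2 difference was 0.053 ± 0.096 (SE, n = 2 per mimic, limma unadjusted p = 0.607). The 95% confidence interval of this probe ran from -0.21 to 0.31, or from 0.865-fold to 1.24-fold.

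IRF2, the repressor that competes with IRF1 for its sites, was dim on every array (A_23_P125082; the annotation places only 16 of its bases, at hg19 chr4:185308860-185308875). It read 4.43 in the control mimic and 4.17 in the miR-511 mimic of experiment 1, and 3.19 and 5.61 in experiment 2, where the control array was not well above background. The highest and the lowest array were those of experiment 2, and the log2 difference was -0.26 in one experiment and 2.42 in the other. IRF2 entered the test only through its miR-511 arrays, so a higher value with the miR-511 mimic is not independent of the filter. The fit gave 1.08 ± 0.66 (SE, n = 2 per mimic, limma unadjusted p = 0.177), and leaving out the miR-511 array of experiment 1 gave 1.80. The difference was 0.36 without the miR-511 array of experiment 2, 0.46 without the control array of experiment 2 and 0.33 with normexp background correction (limma unadjusted p = 0.568, 0.552 and 0.117), so that its size rested on single dim arrays. At levels under 6, spots of the same probe on the same array had a median SD of 0.33.

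IRF8, the factor that directs monocyte development together with PU.1, was bright and nearly even (A_33_P3343120, hg19 chr16:85956052-85956111, plus strand). Its level was 14.27 in the control mimic and 14.35 in the miR-511 mimic of experiment 1, and 14.29 and 14.26 in experiment 2. The miR-511 arrays were the highest and the lowest of the 4, and they differed from each other by more than the means of the mimics did. The log2 difference was 0.024 ± 0.094 (SE, n = 2 per mimic, 95% confidence interval -0.23 to 0.28, limma unadjusted p = 0.812).

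IRF4, the close relative of IRF8 in lymphoid cells, was well above background on 1 array only, the miR-511 mimic of experiment 1 (A_23_P214360, hg19 chr6:411002-411061, plus strand). The intensity was 20.7 there, and 2.12, 2.28 and 2.45 on the control array of experiment 1, the control array of experiment 2 and the miR-511 array of experiment 2. These last 3 were not well above background. The second miR-511 array did not show the signal of the first, and IRF4 was not tested.

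**Figure D2:**
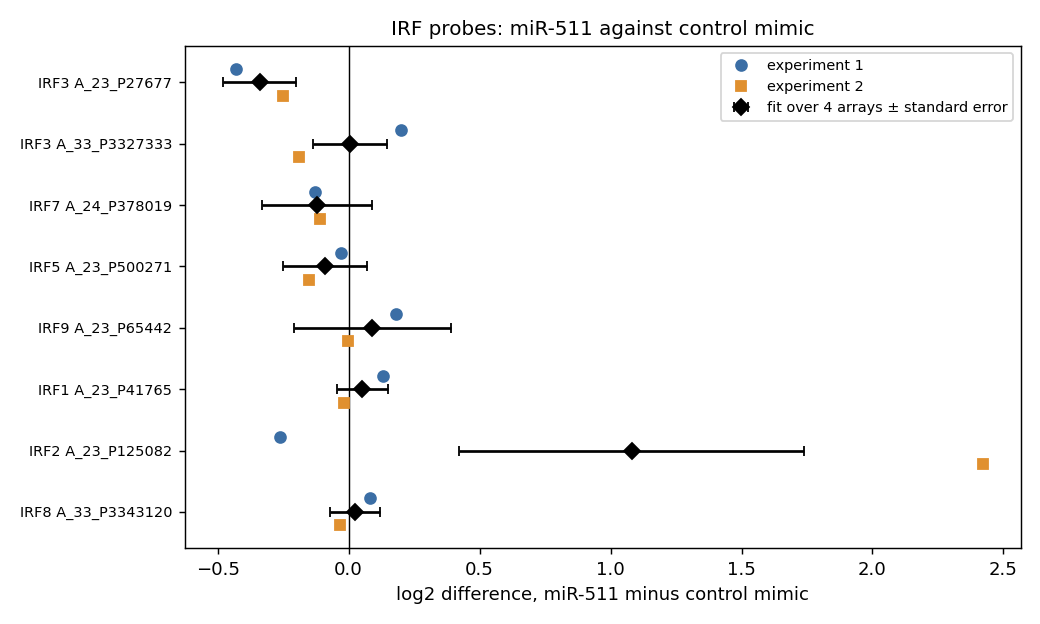
Log2 difference, miR-511 minus control mimic (x axis), of the 8 tested IRF probes (y axis), as blue circles for experiment 1, orange squares for experiment 2 and black diamonds for the fit over 4 arrays with its standard error. The error bar excludes 0 for IRF3 probe A_23_P27677 (-0.34 ± 0.14) and for IRF2 (1.08 ± 0.66), whose experiments lie at -0.26 and 2.42, and neither passed the threshold.

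The experiment was the other factor of the design. In a fit with terms for experiment and mimic, 2 of the 8 IRF probes passed an unadjusted p of 0.05, both lower in experiment 2, where 11.6% of all tested probes passed and 6.77% passed as lower. Those were IRF9 and IRF7. After Benjamini-Hochberg adjustment limma called 0 probes of the array, against 2615 at an unadjusted p below 0.05. The median absolute difference between the experiments was 0.15 for the IRF probes and 0.12 for all tested probes on the log2 scale.

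IRF9 was lower in experiment 2 by 0.49 in the control mimic and by 0.67 in the miR-511 mimic, and the fit gave a log2 difference, experiment 2 minus experiment 1, of -0.58 ± 0.093 (SE, 0.669-fold, limma unadjusted p = 0.00865, Benjamini-Hochberg adjusted p = 0.388). A plain t test in the same model, with terms for experiment and mimic, borrows no information from other probes. By that test the IRF9 difference did not pass (unadjusted p = 0.0983, n = 2 per experiment). An exact permutation test of 2 against 2 arrays, without regard to the mimic, could not go below 0.333. IRF7 was lower by 0.40 in the control mimic and 0.38 in the miR-511 mimic, with a fitted difference of -0.39 ± 0.077 (SE, 0.761-fold, limma unadjusted p = 0.0149, Benjamini-Hochberg adjusted p = 0.396). Leaving out each array, in fits without a term for the mimic, IRF9 passed all 4 times, while IRF7 did not pass without the control array of experiment 1 (-0.33, limma unadjusted p = 0.0507) or without the miR-511 array of experiment 2 (-0.34, limma unadjusted p = 0.0632). For IRF9 and IRF7, both of which interferon induces, every array of experiment 2 lay below every array of experiment 1.

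IRF5 also had both of its experiment 2 arrays below both of its experiment 1 arrays, by 0.20 in the control mimic and 0.32 in the miR-511 mimic. Its fitted difference was -0.26 ± 0.085 (SE, limma unadjusted p = 0.0562), and it passed 0.05 with normexp background correction (log2 difference -0.32, limma unadjusted p = 0.00784), with an intensity trend (limma unadjusted p = 0.0178), among probes above background on all arrays (limma unadjusted p = 0.0498) and without a term for the mimic (limma unadjusted p = 0.0395). With each array left out in that last fit it passed 1 of 4 times, without the control array of experiment 2 (-0.34, limma unadjusted p = 0.0404). The differences of the remaining tested probes were smaller in relation to their errors. They were 0.19 ± 0.092 and -0.073 ± 0.14 for the IRF3 probes, 0.022 ± 0.088 for IRF1, -0.039 ± 0.084 for IRF8 and 0.11 ± 0.78 for IRF2 (SE), and none passed the threshold. What differed between the experiments beyond their number is not given in the sources used here.

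**Figure D3:**
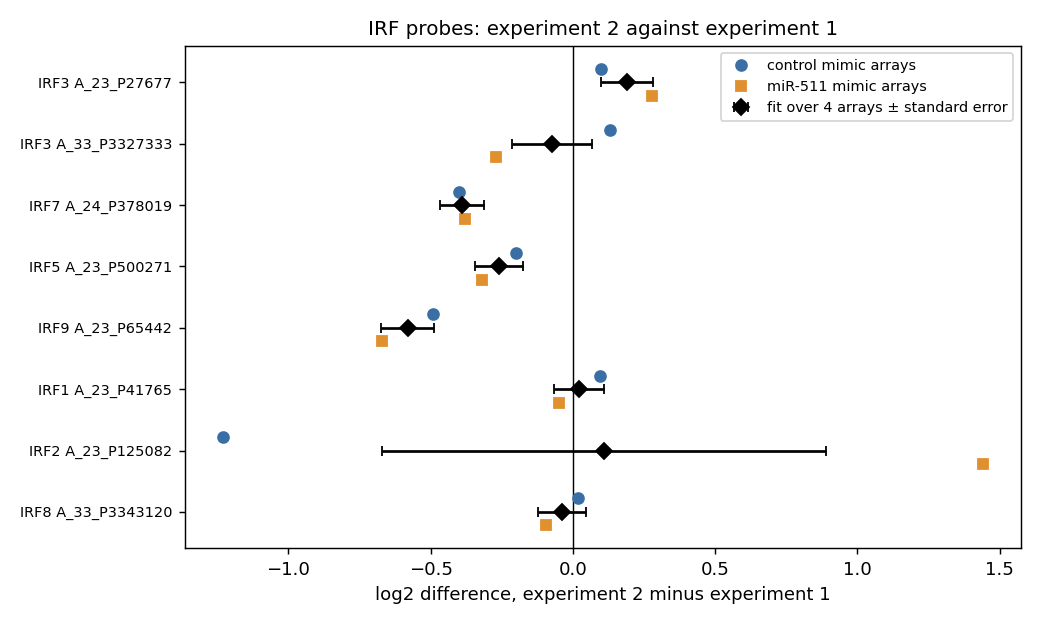
Log2 difference, experiment 2 minus experiment 1 (x axis), of the 8 tested IRF probes (y axis), as blue circles within the control mimic, orange squares within the miR-511 mimic and black diamonds for the fit over 4 arrays with its standard error. IRF9 (-0.58 ± 0.093), IRF7 (-0.39 ± 0.077) and IRF5 (-0.26 ± 0.085) are lower in experiment 2 under both mimics.

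The promoters of the members that the RefSeq table holds were searched for elements of the pathway, since IRF9 and IRF1 are themselves targets of STAT proteins. The table held 9 promoter windows of 5 members (IRF1, IRF4, IRF5, IRF8 and IRF9), each from 250 bases before to 50 after a transcription start on GRCh38.p14. Both strands were read. The STAT element TTCNNNGAA was in 2 of the 9 windows and in 7.66% of the 35116 windows of all genes, and the IRF repeat GAAANNGAAA was in 0 of the 9 and in 3.57% of all. The matches are shown on the strand of the gene with the element in capitals, at chr5:132490878-132490907 (minus strand, first base of the element 124 bases before the start) for IRF1 and at chr14:24161192-24161221 (plus strand, 63 bases before the start) for IRF9.
IRF1 promoter: acagcctgatTTCCCCGAAatgacggcacg
IRF9 promoter: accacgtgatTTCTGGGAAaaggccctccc
Between the experiments, IRF9 was lower in experiment 2 and IRF1 had a difference of 0.022 ± 0.088 (SE). Whether the element bears on either value was not tested. A match of letters in a window does not show that a factor was bound.

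Around the IRFs, 6 lists of 95 genes in all were read from the same fits, with the brightest tested probe for each gene. CIITA stands in 2 of them. Of the 79 genes that could be tested, 0 passed an unadjusted p of 0.05 for the miR-511 mimic in limma, where 2.12% of 18001 genes did. With the replicate block 1 passed, the chemokine gene CXCL10. This gene entered the test only through its 2 control arrays, so its call as lower is not independent of the filter. It had levels of 4.57 and 3.62 in the control mimic and 3.23 and 1.57 in the miR-511 mimic of experiments 1 and 2, and neither miR-511 array was well above background. The mean level of CXCL10 was 4.09 with the control mimic and 2.4 with the miR-511 mimic, the latter from arrays not well above background. A bound of 1.63-fold or more for that fall, on these arrays only, carries the same selection by the filter. It also takes no account of the spread between arrays. The difference did not pass without the block (limma unadjusted p = 0.0624, Benjamini-Hochberg adjusted p = 1.000) and passed with it (limma unadjusted p = 0.00474). A dimmer probe of CXCL10 did not pass in either fit (limma unadjusted p = 0.165 and, with the block, 0.166).

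The genes that signal to the IRFs, from the adaptors MYD88, TICAM1 and MAVS to the kinases TBK1 and IKBKE, were all above background (15 of 15 on the array tested). Their log2 differences between the mimics ran from -0.072 to 0.20 with a median of 0.0022, beside 0.01 for all tested genes. The kinase TBK1, which phosphorylates IRF3, had 0.054 ± 0.099 (SE, limma unadjusted p = 0.611). None of the 15 passed between the experiments either, where 11.8% of all tested genes did.

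Among the partner proteins of the IRFs, 11 were tested, with a median log2 difference of 0.033 between the mimics. STAT2, which is part of ISGF3 with IRF9, had -0.21 ± 0.13 (SE, limma unadjusted p = 0.185), and SPI1, which encodes PU.1, had 0.11 ± 0.13 (SE, limma unadjusted p = 0.445). The lowest value was that of IRF2BP2, a co-repressor that binds IRF2, at -0.61 ± 0.46 (SE, limma unadjusted p = 0.259), with -1.16 in experiment 1 and -0.05 in experiment 2. Between the experiments the PU.1 relative SPIB rose by 0.35 ± 0.078 (SE, limma unadjusted p = 0.0216) and the other 10 did not pass.

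Of the listed interferon genes on the array, IL29 was well above background on 1 array and IFNA2, IFNB1, IFNG, IFNE, IFNK and IFNW1 on none. IFNB1 encodes interferon beta, the classical product of activated IRF3. The receptor chains and their kinases were present, apart from IL28RA, and 8 genes of this group were tested. Their median log2 difference between the mimics was 0.022, and IFNGR1 had the lowest, -0.42 ± 0.25 (SE, limma unadjusted p = 0.166). Between the experiments IFNAR1, a chain of the type I interferon receptor, was lower in experiment 2 by 0.37 and the kinase gene JAK2 by 0.29 (log2 differences of -0.37 ± 0.10 and -0.29 ± 0.086, SE, limma unadjusted p = 0.0347 and 0.0435).

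Of the targets of ISGF3, the complex that holds IRF9, 7 of 24 were lower in experiment 2 by the same rule as IRF9 and IRF7. All 24 were tested, 7 passed an unadjusted p of 0.05 and all 7 were lower in experiment 2, where 11.8% of all tested genes passed and 7.01% passed as lower. None passed after Benjamini-Hochberg adjustment. Of those that passed, the lowest values were those of CXCL10, IFI6 and IFIT5, with log2 differences of -1.30 ± 0.22, -0.66 ± 0.098 and -0.46 ± 0.085 (SE, limma unadjusted p = 0.00994, 0.00695 and 0.013). CXCL10 was well above background on 2 of the 4 arrays, both of the control mimic, so its size rests partly on values at background, while IFI6 and IFIT5 were on all 4. IFI44 and OAS1 had -0.80 and -0.71 and did not pass (limma unadjusted p = 0.11 and 0.0669). The others, named after their values were seen, were IFITM1 (-0.42), ISG15 (-0.36), OAS2 (-0.35) and IFI27 (-0.28). The other probes of CXCL10, IFITM1 and OAS2 were lower in experiment 2 as well, but did not pass. The median over the 24 genes was -0.36, beside -0.012 over all tested genes, and 23 of the 24 were lower in experiment 2, beside 53.1% of all. OAS3 was the exception, with 0.13 ± 0.29 (SE, limma unadjusted p = 0.682).

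The level of OAS2, an enzyme that senses double-stranded RNA, was 7.99 and 8.11 in the control and miR-511 mimics of experiment 1 and 7.71 and 7.68 in experiment 2. IFI6 read 8.51 and 8.63, then 7.96 and 7.87. In both genes every array of experiment 2 lay below every array of experiment 1, as in IRF9 and IRF7. Within the control mimic 19 of the 24 targets were lower in experiment 2 (median -0.17, beside 49.8% of all genes), and within the miR-511 mimic 24 of 24 were (median -0.51, beside 56.7%).

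Between the mimics, 15 of the 24 ISGF3 targets were higher with the miR-511 mimic in experiment 1 and lower with it in experiment 2, beside 28.5% of all tested genes. The other 9, IFIT5 and MX2 (higher in both) and CXCL10 (lower in both) among them, did not go that way. In experiment 1, 19 of 24 were higher with the miR-511 mimic (median log2 difference 0.13, beside 58.4% of all genes), and in experiment 2, 20 of 24 were lower (median -0.24, beside 50.4%). MX1, a GTPase that blocks viruses, had levels of 9.27 and 9.40 in the control and miR-511 mimics of experiment 1, and of 9.05 and 8.50 in experiment 2. With 1 array per mimic in each experiment, this difference between the experiments could not be tested. Over both experiments the median of the 24 was -0.043 and 0 passed.

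Of the targets of IRF1 after interferon gamma, 14 of 17 were tested. Some of the listed genes, TAP1 and B2M among them, serve antigen presentation on MHC class I, and others, such as GBP5 and IDO1, do not. Their median log2 difference was -0.029 between the mimics and -0.0042 between the experiments, with the lowest value between the mimics at GBP5 (-0.30 ± 0.16, SE, limma unadjusted p = 0.135). NLRC5, the activator of MHC class I genes, was the one that passed between the experiments, at 0.38 ± 0.079 higher in experiment 2 (SE, limma unadjusted p = 0.0179), while its dimmer probe had 0.13 (limma unadjusted p = 0.315). Of the targets of IRF8 with PU.1, 8 of 9 were tested and none passed in either comparison. Their median log2 difference between the mimics was -0.094, and the lowest value was -0.24 for ACP5, with -0.67 in experiment 1 and 0.20 in experiment 2. ACP5 was dim and well above background on 3 arrays, so it entered the test through only 1 mimic.

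**Figure D4:**
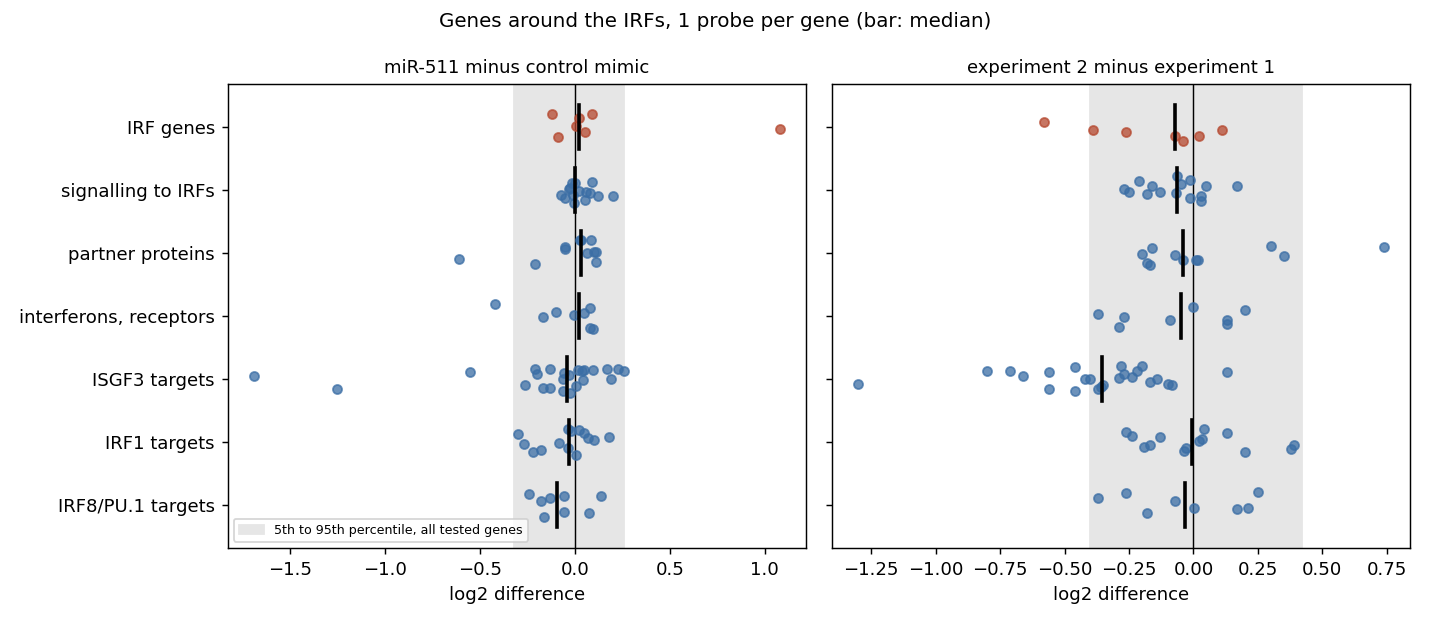
Log2 difference (x axis) of the 7 tested IRF genes (red) and of the tested genes of the 6 lists (blue), 1 probe per gene, between the mimics on the left and between the experiments on the right, with a black bar at each median and the 5th to 95th percentile of all tested genes in grey (-0.32 to 0.26 on the left, -0.40 to 0.42 on the right). The ISGF3 targets lie to the left of 0 between the experiments, with a median of -0.36 and 23 of 24 genes below 0, and between the mimics no list median is further than 0.094 from 0.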

How the data were processed

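RNA of THP1 cells was hybridized to 4 single-dye arrays. The deposited scanner files hold processed intensities that the authors had made with Agilent Feature Extraction (10.5.1.1 per the labels, 10.7.3.1 per the file headers), corrected for background and detrended within each array, with low spots at a surrogate value. A second deposited table holds the log2 values of the authors, equal in distribution between the arrays as quantile normalization leaves them, and was used as an alternative.

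Here the log2 of the intensity of non-control spots was taken in R 4.3.3, between 232 and 301 spots per array marked as outliers were left out, arrays were quantile normalized and spots of a probe averaged. Tested were 22638 of 34127 probes, those with values on all arrays that at least 1 mimic showed well above background on both of its arrays. limma 3.58.1 (lmFit, eBayes, two-sided) was fitted on all of them, at an unadjusted p below 0.05, the threshold of the study, with Benjamini-Hochberg adjustment beside it. The fit between the mimics without the block had 4.14 total degrees of freedom, and the fits with terms for both mimic and experiment had fewer. The second condition of the study, on identical replicate probes, could not bear on IRF probes, which are printed once. The comparison between mimics had no term for the experiment. The labels number the experiments, so the number pairs the arrays. Deviations of arrays with the same number correlated at 0.271, and the block was an alternative. The number of arrays limits the precision. The scanner software's well above background mark was used as given.

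All probes of the 8 IRFs are named, with the brightest standing for a gene in counts by gene. Of the lists, up to 3 rises and 3 falls past the threshold and genes a result turns on are named. Members and lists were chosen with earlier results of these data known. All 9 IRF accessions matched RefSeq names. Coordinates of probes are hg19 as in the files. The functions were tested on simulated data. Some genes of the marker and pathway lists are not reported here by name.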

Additional observations from a re-analysis of the deposited data

How the results depend on the processing

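The count of IRF probes past an unadjusted p of 0.05 between the mimics, 0, became 1 with an intensity trend and 1 with the replicate block (IRF3 A_23_P27677 in both), and ranged from 0 to 1 when each array was left out, IRF2 passing without the miR-511 array of experiment 1 and IRF3 A_23_P27677 without that of experiment 2. Of all probes, 498 passed, and 265 with normexp background correction, 285 with an intensity trend, 894 with the replicate block, 1029 with no filter on dim probes and 516 to 1379 leaving out each array (796 without the control array of experiment 1, 1379 without the miR-511 array of experiment 2). Of the listed genes 0 passed, 2 with no filter, 1 with the replicate block and 0 to 6 leaving out each array (6 and 4 without the miR-511 array of experiments 1 and 2, 2 without the control array of experiment 2). The block changed no other IRF call. IRF2 entered the test only through its miR-511 arrays, so its pass between the mimics is not independent of the filter. Leaving out each array turned signs between the mimics: log2 differences ranged from -0.25 to 0.42 for IRF9 (below 0 at -0.25 without the miR-511 array of experiment 1 and -0.16 without the control array of experiment 2), from -0.13 to 0.14 for IRF3 A_33_P3327333 (-0.13 and -0.058 without the miR-511 and the control array of experiment 1), from -0.024 to 0.072 for IRF8 (-0.024 without the miR-511 array of experiment 1), from -0.25 to 0.071 for IRF5 and from -0.32 to 0.08 for IRF7 (0.0079 and 0.08 without the control array of experiment 1, 0.071 in both genes without the miR-511 array of experiment 2). None of these passed. Between the experiments, 2 IRF probes passed, and 1 by the plain test, which lost IRF9. Of the listed genes 11 passed there, and 18 with 75th percentile scaling, 21 with normexp, 19 with an intensity trend, 7 with no filter and 6 by the plain test. IRF1 turned to -0.0079 with 75th percentile scaling and -0.0028 with normexp. With all arrays, the ISGF3 targets lower in experiment 2 numbered 22 or 23 of 24, or 20 of 21 above background on all arrays. The settings for the lists between the experiments were chosen after seeing the data. The causes of these shifts were not tested. No setting gave a call after adjustment. Leaving out each array between the experiments was run without a term for the mimic, since 3 arrays leave no residual degree of freedom with both terms, and was chosen after seeing the data. It called 1 to 4 IRF probes (4 without the control array of experiment 2, where IRF2 and IRF5 joined, 1 without that of experiment 1), with 9 to 14 of the listed genes and 21 to 24 of the ISGF3 targets lower in experiment 2. IRF2 ranged from -1.1 to 1.31, passing in both directions without the miR-511 or the control array of experiment 2, and was -0.023 without the miR-511 array of experiment 1. IRF3 A_23_P27677 ranged from -0.023 to 0.40, IRF3 A_33_P3327333 from -0.18 to 0.028 (0.028 and 0.024 without the miR-511 arrays of experiments 1 and 2), IRF8 from -0.08 to 0.00085 and IRF1 from -0.04 to 0.085. With 2 arrays per group, changes as small as those of most IRFs cannot be told from array spread, and IRF2 and IRF4 lay too near background for a size.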
